A study of Mus musculus with 5 samples.

Results

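The collagen gene family was described across the cell classes of the mouse ocular area. Its members were taken by name, as every gene whose symbol is Col, a number, a and a number, and 44 of the 27998 genes in the deposited matrix met this rule. Of these 44 genes, 42 had at least 1 UMI (a distinct RNA molecule) in the whole dataset, and Col10a1 and Col6a6 had none. The cells came from wild-type C57BL/6J embryos with 12, 16, 20, 24 and 26 somites, with 1 embryo at each stage and both of its optic areas dissected by needle, dissociated with trypsin and prepared with the 10x Genomics Chromium 3′ kit. There was no treated or mutant group and no replicate embryo.

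Collagens are secreted or membrane-bound proteins whose chains wind around each other into a stiff helix. Fibrillar collagens form the fibres of mesenchyme, cartilage and vitreous, type IV collagen forms the sheet-like network of basement membranes, and the fibril-associated and multiplexin collagens attach to fibres or to basement membranes. In the early eye, basement membranes surround the optic vesicle, the surface ectoderm and the first vessels, and loose mesenchyme from neural crest and head mesoderm lies between them. Some collagens, such as types I, IV and IX, are built from the chains of more than 1 gene, and others, such as types II and III, from the chain of a single gene.

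The libraries are told apart only by the suffix of the barcode, from 1 to 5. No label links a suffix to a somite stage, so the libraries are numbered by suffix, the numbers carry no order, and no comparison between stages was made. Libraries had 1307 to 1996 barcodes and a median of 20713 to 30922 UMIs per barcode, with the lowest median in library 5. After filtering, 8106 cells were grouped into classes by clustering from which every collagen and every gene of the collagen pathway lists was left out, so that their levels did not make the classes. The 5 classes compared were optic vesicle-like (2135 cells), crest mesenchyme-like (1695), head mesoderm-like (446), surface ectoderm-like (411) and endothelium-like (388). Head mesoderm-like cells had Acta2 and Tagln among their leading genes and numbered 18 in library 5, under the minimum of 20, so that class is given for libraries 1 to 4. Their summed crest mesenchyme markers (469, 543, 562 and 685 CPM in libraries 1 to 4) were above their head mesoderm markers in libraries 3 and 4 (709, 785, 458 and 565 CPM), and at a finer clustering (resolution 2) the class had 253 cells and crest mesenchyme-like 1923, so the border between the mesenchyme-like classes depends on the clustering. Most optic and crest sub-clusters came from 1 library each.

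Sequence at the annotated starts is shown for 3 places in genes described below, and no level was related to it. Col9a1 has 2 annotated starts in RefSeq (GRCm38.p6), Col3a1 has 1, and the starts of Col4a1 and Col4a2 lie 21 bases apart on opposite strands of chromosome 8. The upstream start of Col9a1 is known from cartilage and the downstream start from the eye. Reads from the 3′ end of a transcript do not tell which start was used, and the values below count both. The windows are the 250 bases before each start, written 5′ to 3′ on the plus strand, and were searched on both strands for the TATA box letters TATAAA, the GC box letters GGGCGG and the CCAAT box letters CCAAT, with a match in capitals; the motifs do not overlap each other. Of 32851 windows of the same length before annotated mouse starts, 12.4% hold TATAAA, while 32.7% hold GGGCGG and 33.8% hold CCAAT. In the line for the type IV pair the capitals mark the start bases of Col4a2, at 11312805, and of Col4a1, at 11312826. Motifs are not marked in that line, which holds GGGCGG in small letters between the starts, outside the windows searched.
Col9a1, upstream start, chr1:24177360-24177609: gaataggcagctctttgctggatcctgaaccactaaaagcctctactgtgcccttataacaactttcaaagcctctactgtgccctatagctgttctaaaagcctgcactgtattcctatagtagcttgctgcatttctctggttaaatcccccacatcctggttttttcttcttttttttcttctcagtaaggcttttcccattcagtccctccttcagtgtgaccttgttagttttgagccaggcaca
Col9a1, downstream start, chr1:24194953-24195202: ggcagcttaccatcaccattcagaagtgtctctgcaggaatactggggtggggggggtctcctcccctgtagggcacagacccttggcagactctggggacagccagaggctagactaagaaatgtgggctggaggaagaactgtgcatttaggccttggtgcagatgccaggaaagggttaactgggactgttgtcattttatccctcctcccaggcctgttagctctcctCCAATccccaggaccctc
Col3a1, chr1:45311288-45311537: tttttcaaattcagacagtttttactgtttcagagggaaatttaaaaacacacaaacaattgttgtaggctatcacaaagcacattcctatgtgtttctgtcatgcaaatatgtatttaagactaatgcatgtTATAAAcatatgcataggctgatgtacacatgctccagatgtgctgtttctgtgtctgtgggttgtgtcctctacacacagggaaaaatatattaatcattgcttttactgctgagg
Col4a2 and Col4a1 starts, chr8:11312797-11312826: ccctcggcAgtgcgcgggcggcgtctccaA
The upstream Col9a1 window held none of the 3 motifs and the downstream window held CCAAT 18 bases before the start. The Col3a1 window held TATAAA 117 bases before the start. A match is a string of letters, not a measured site.

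Levels are UMIs of a gene summed over the cells of a class, divided by all UMIs of those cells and scaled to 1000000 (CPM). Tags are read from the 3′ end without a length correction, so levels are compared between classes and libraries for 1 gene, and ratios of partner chains are ratios of UMIs. Intervals are exact 95% intervals that cover counting error only, and no p-value is given: cells are not replicates, and differences between classes are given with the number of libraries that share their direction. Pooled over libraries, all collagens summed to 958 CPM in head mesoderm-like, 948 in endothelium-like, 777 in crest mesenchyme-like, 362 in surface ectoderm-like and 286 in optic vesicle-like cells. The order of the highest 3 differed between libraries: crest mesenchyme-like cells ran from 341 CPM in library 1 to 1278 CPM in library 5 and were above endothelium-like cells in library 4 (988 against 849 CPM). Erythroid-like cells, a class not known for making collagen, had 17.7 CPM and serve as the background. Col18a1 and Col5a1 made up 62 and 37 of their 193 collagen UMIs, more than the 16 of Col3a1 and 13 of Col2a1, although Col3a1 and Col2a1 had more UMIs than either over all barcodes. The erythroid level of Col18a1 and Col5a1 is therefore given as measured and not as a level of free RNA.

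Of the 44 collagens, 12 reached at least 20 CPM in at least 1 of the 5 classes. Their highest level was in endothelium-like cells for 4, in crest mesenchyme-like cells for 4, in head mesoderm-like cells for 3 and in optic vesicle-like cells for 1. No collagen at this level was highest in surface ectoderm-like cells. The split of all genes at this level by class was not counted, so these numbers describe the members only. In crest mesenchyme-like cells Col2a1 (1.06 times the next class, 0.996 to 1.13) and Col5a2 (1.15 times, 0.997 to 1.33) led within counting error. Each was highest there in 2 of 5 libraries. A further 4 collagens peaked between 5 and 20 CPM: Col13a1 at 18.5 CPM, Col1a1 at 17.4 CPM and Col27a1 at 15.6 CPM in head mesoderm-like cells, and Col5a1 at 13.6 CPM in crest mesenchyme-like cells. The other 28 stayed under 5 CPM in each class, 26 of them with at least 1 UMI, and the highest of these was Col12a1 with 4.55 CPM in head mesoderm-like cells.

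**Figure D1:**
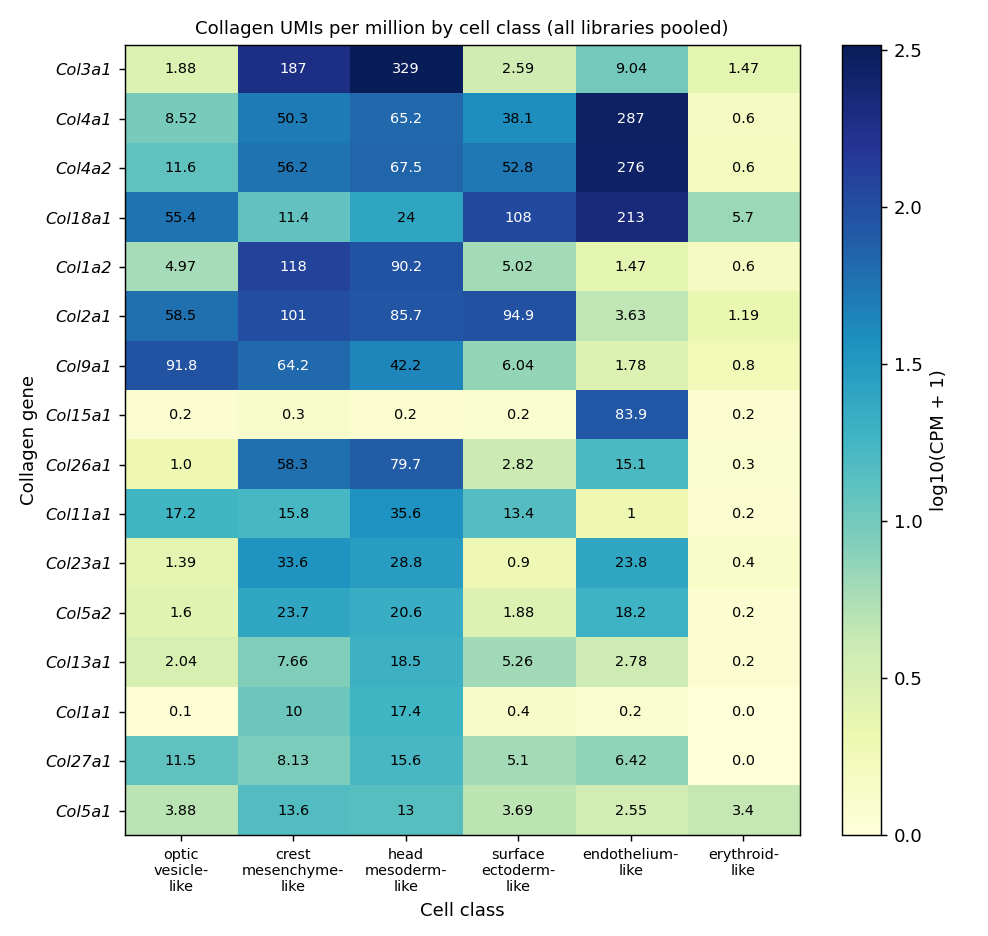
Level of the 16 collagens with at least 5 CPM in a class (vertical axis), in the 5 classes and in erythroid-like cells (horizontal axis), with all libraries pooled; numbers are CPM and colour is log10(CPM + 1). Col15a1 stands at 83.9 CPM in endothelium-like cells and under 1 CPM in the other columns, and Col9a1 is highest in optic vesicle-like cells at 91.8 CPM.

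Among the fibrillar collagens, Col3a1 and Col1a2 were higher in the mesenchyme-like classes than in each of the other 3. Col3a1, the chain of type III collagen in loose connective tissue, had 329 CPM in head mesoderm-like cells (318 to 339.8) and 187 CPM in crest mesenchyme-like cells (183 to 191). It had 1.88 CPM in optic vesicle-like cells and 1.47 CPM in erythroid-like cells, so the optic level was near that background. The crest level was 99.4 times the optic level (84.3 to 118) and the head mesoderm level 175 times (148 to 208). With the erythroid level subtracted these ratios were 445 and 788, and with the cells of unnamed clusters counted in the nearest class 20.3 and 38.0. After thinning each cell to 10000 UMIs, 71.8% of crest mesenchyme-like and 89.8% of head mesoderm-like cells had a Col3a1 UMI, against 1.2% of optic vesicle-like and 1.58% of erythroid-like cells. Without thinning these shares were 86.8%, 96.0%, 5.11% and 5.93%, with a median depth of 28218, 24601, 30286 and 42576 UMIs per cell in turn.

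Within crest mesenchyme-like cells Col3a1 had the widest range between libraries of the 12 collagens with at least 20 CPM. Col3a1 had 33.0, 159, 150.5, 237 and 368 CPM in libraries 1 to 5. Library 1 was lowest and library 5 highest, 11.1 times library 1 (9.95 to 12.5), and the 5 counting intervals overlapped only between libraries 2 and 3. The thinned share of crest mesenchyme-like cells with a UMI was 23.4%, 72.3%, 64.6%, 85.4% and 92.4% in the same libraries. In head mesoderm-like cells Col3a1 ranged only from 285 to 398 CPM over libraries 1 to 4. At resolution 2 the crest range was 4.33 times.

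The crest sub-clusters showed the same spread, from 35.0 CPM in the 263 cells led by Alx1 and Crabp1, of which 247 came from library 1, to 428 CPM in the 140 cells of library 5 with Cxcl12 among their leading genes. The former sub-cluster passed 5 of the 6 migratory crest markers (Sox10 among them) and the latter 6 of the 11 head mesoderm markers. Summed over crest mesenchyme-like cells, the migratory crest markers had 366, 221, 144, 85.0 and 62.3 CPM in libraries 1 to 5, with no marker at 0. The head mesoderm markers had 119, 240.2, 192, 319.8 and 554 CPM, also with no marker at 0. Libraries with more Col3a1 had more of the latter list and, apart from the order of libraries 2 and 3, less of the former, and the part of these markers in the Col3a1 range was not tested.

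Most UMIs of type I collagen, the main fibre of bone and skin, came from Col1a2. Col1a2 had 118 CPM in crest mesenchyme-like and 90.2 CPM in head mesoderm-like cells, 23.8 times (21.4 to 26.4) and 18.1 times (16.1 to 20.5) the optic level of 4.97 CPM, and 11.1 and 8.82 times with the unnamed clusters joined. In crest mesenchyme-like cells it had 64.8, 116, 93.6, 186 and 132 CPM in libraries 1 to 5, highest in library 4. Its partner Col1a1 had 0.676, 6.52, 4.25, 13.6 and 25.6 CPM in the same cells. Type I trimers are usually made with more of the Col1a1 than of the Col1a2 chain, and the files held 0.0969 Col1a1 UMIs per Col1a2 UMI over the 5 classes. The ratio in crest mesenchyme-like cells was 0.0104 in library 1 and 0.195 in library 5, whose intervals were 0.00418 to 0.0216 and 0.169 to 0.224. In head mesoderm-like cells it lay between 0.184 and 0.266 in libraries 1 to 4. The 3′ tag yield of the 2 genes was not measured, so the size of the ratio is a property of these counts, while its spread between libraries is within 1 gene pair.

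Col2a1, the fibrillar collagen of cartilage and vitreous, was shared by 4 classes. It had 101 CPM in crest mesenchyme-like, 94.9 in surface ectoderm-like, 85.7 in head mesoderm-like and 58.5 in optic vesicle-like cells, against 3.63 CPM in endothelium-like cells. The highest 2 of these classes did not differ beyond their counting interval (ratio 1.06, 0.996 to 1.13). In optic vesicle-like cells Col2a1 had 25.3, 53.1, 49.8, 56.1 and 77.0 CPM in libraries 1 to 5, and in crest mesenchyme-like cells 39.6, 85.4, 88.1, 141 and 153 CPM. Library 1 was lowest and library 5 highest in both classes, and the optic level was below the crest level in 5 of 5 libraries. In surface ectoderm-like cells the levels were 89.5, 69.9, 88.2, 141 and 97.0 CPM, with library 4 highest.

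Col11a1, which sets the diameter of type II fibrils, was highest in head mesoderm-like cells at 35.6 CPM. That was 2.07 times the optic level of 17.2 CPM (1.85 to 2.32). Its optic levels were 6.16, 15.4, 10.5, 15.2 and 28.6 CPM in libraries 1 to 5, and its crest levels 10.6, 8.93, 10.2, 15.5 and 34.0 CPM. Library 5 was the highest in both, and its partner Col11a2 had 42 UMIs against 2676 for Col11a1 over the 5 classes.

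Col5a2 and Col5a1, the type V chains that start fibrils, differed in where they were found. Col5a2 had 23.7 CPM in crest mesenchyme-like, 20.6 in head mesoderm-like and 18.2 in endothelium-like cells, against 1.60 in optic vesicle-like cells. Col5a1 had 13.6, 13.0, 2.55 and 3.88 CPM in these classes. Erythroid-like cells had 3.40 Col5a1 CPM, a level like those of endothelium-like and optic vesicle-like cells. The Col5a1 UMIs per Col5a2 UMI were accordingly 0.575 in crest mesenchyme-like and 0.14 in endothelium-like cells.

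**Figure D2:**
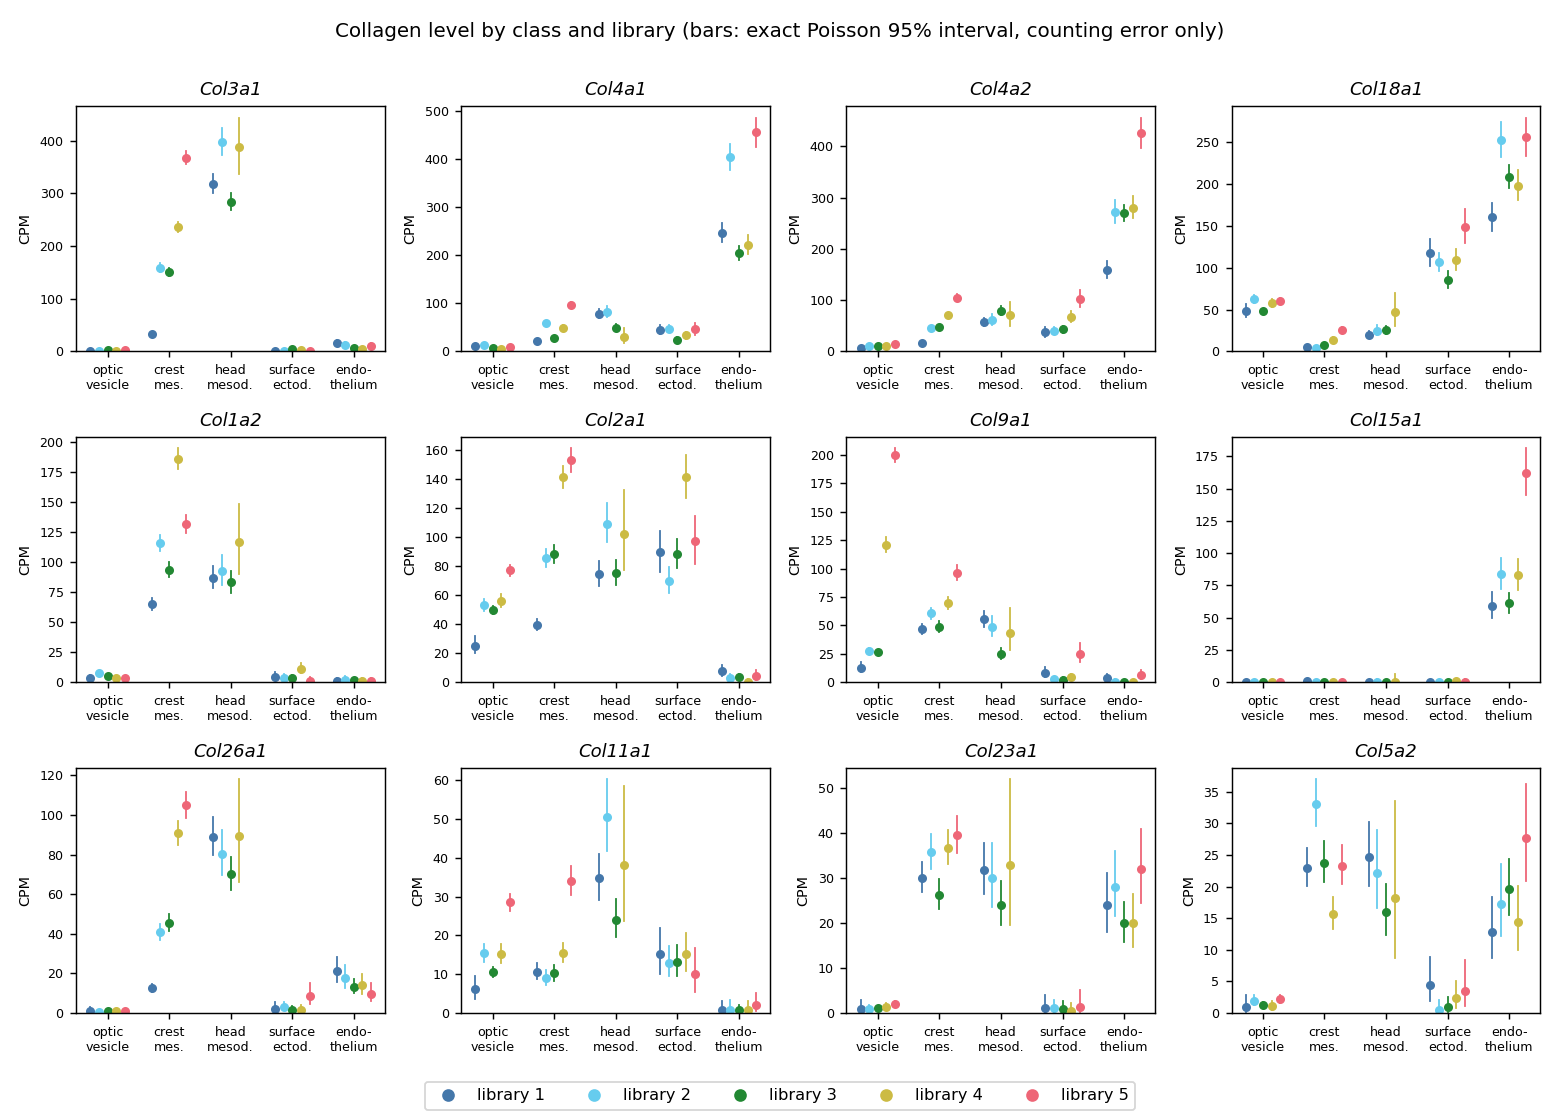
CPM (vertical axis, starting at 0) of the 12 collagens with at least 20 CPM in a class, by class (horizontal axis) and library (colour), with exact Poisson 95% intervals that cover counting error only; head mesoderm-like cells of library 5 are left out. Col9a1 in optic vesicle-like cells runs from 13.0 to 199.8 CPM and Col3a1 in crest mesenchyme-like cells from 33.0 to 368 CPM, while Col18a1 in optic vesicle-like cells stays between 48.0 and 62.6 CPM.

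Among the network-forming collagens, Col4a1 and Col4a2, the main chains of basement membranes, were highest in endothelium-like cells. Col4a1 had 287 CPM there (278 to 296) and Col4a2 276 CPM (267 to 285), with 83.7% and 82.9% of thinned cells holding a UMI. Both were lower in head mesoderm-like cells (65.2 and 67.5 CPM), crest mesenchyme-like cells (50.3 and 56.2) and surface ectoderm-like cells (38.1 and 52.8), and lowest in optic vesicle-like cells (8.52 and 11.6). The endothelial level was 33.7 times the optic level for Col4a1 (31.0 to 36.6) and 23.7 times for Col4a2 (22.0 to 25.5), higher in 5 of 5 libraries for both. The optic level was above the 0.551 and 0.643 CPM of erythroid-like cells.

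Across libraries the type IV chains moved by class. In endothelium-like cells Col4a1 had 246, 404, 204, 221 and 455 CPM in libraries 1 to 5 and Col4a2 had 159, 272, 269.6, 280.3 and 426 CPM. In crest mesenchyme-like cells Col4a1 had 22.0, 58.9, 27.4, 49.5 and 96.4 CPM and Col4a2 had 16.6, 45.1, 47.0, 70.3 and 105 CPM. Library 5 was highest for both genes in both classes, and library 1 lowest except for Col4a1 in endothelium-like cells.

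The UMIs of Col4a1 and Col4a2, which share the start region printed above, were nearly equal in sum but not library by library. Over the 5 classes there were 8030 Col4a1 and 8627 Col4a2 UMIs, a ratio of 0.931 (0.903 to 0.960), while the ratios in libraries 1 to 5 were 1.43, 1.36, 0.681, 0.699 and 0.894. Libraries 1 and 2 had a ratio above 1 in each of the 5 classes, from 1.19 to 1.83 in library 1 and from 1.19 to 1.48 in library 2. Libraries 3 and 4 had a ratio below 1 in each of the 5 classes, from 0.576 to 0.758 and from 0.436 to 0.789. The interval left out 1 in 4 and 3 classes of libraries 1 and 2 and in 5 and 5 classes of libraries 3 and 4. The classes of a library share its preparation and its embryo, whose parts in the ratio cannot be told apart. Over the 24 combinations of class and library, which share libraries and classes, the log2 levels of Col4a1 and Col4a2 had a Pearson r of 0.93 and a Spearman rho of 0.87.

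**Figure D3:**
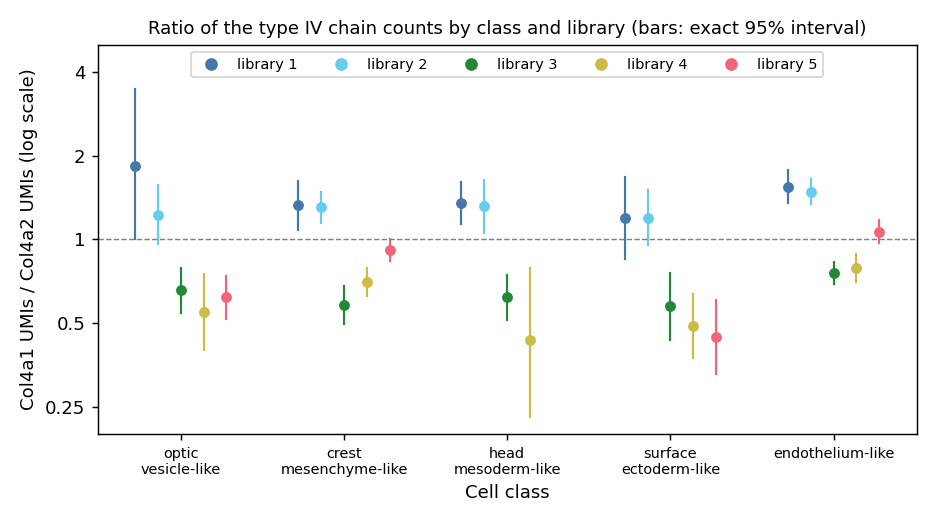
Col4a1 UMIs per Col4a2 UMI (vertical axis, log scale) by class (horizontal axis) and library (colour), with exact 95% intervals and a dashed line at 1. Libraries 1 and 2 lie above the line and libraries 3 and 4 below it in each class, from 1.83 to 0.436.

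The other type IV genes had few UMIs. Col4a5 and Col4a6, neighbours on chromosome X with starts facing apart, had 415 and 190 UMIs over the 5 classes and were highest in surface ectoderm-like cells, at 4.55 and 2.51 CPM. Col4a3 had 7 UMIs and Col4a4 had 61 UMIs in all barcodes.

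Of the fibril-associated collagens, Col9a1, which coats type II fibrils in cartilage and vitreous, was the only one of the 12 collagens at or above 20 CPM with its highest pooled level in optic vesicle-like cells. It had 91.8 CPM there (89.6 to 93.9), 64.2 in crest mesenchyme-like and 42.2 in head mesoderm-like cells, but 6.04 in surface ectoderm-like and 1.78 in endothelium-like cells. The surface ectoderm level was 0.0658 times the optic level (0.0519 to 0.0824) and lower in 5 of 5 libraries. It was 0.108 times with libraries weighted equally and 0.0356 times without the ectoderm sub-clusters that passed lens placode or notochord markers, a comparison added after seeing the data.

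The optic level of Col9a1 came mainly from 2 libraries. Col9a1 had 13.0, 27.4, 26.7, 121 and 199.8 CPM in optic vesicle-like cells of libraries 1 to 5. Libraries 4 and 5 were far above the others, and library 5 was 15.4 times library 1 (11.3 to 21.6), or 23.1 times with doublets kept. In crest mesenchyme-like cells Col9a1 had only a 2.06-fold range, with 46.7, 60.5, 49.0, 69.7 and 96.3 CPM. Crest was therefore above optic in libraries 1 to 3 and below it in libraries 4 and 5. Without library 5 the pooled crest to optic ratio went from 0.699 to 1.27, and the highest class was then crest mesenchyme-like, and the head mesoderm to optic ratio went from 0.460 to 0.949. At resolution 2 the latter ratio was 0.213. Unnamed neural cells (304), left out of the classes, had 1069 CPM of summed optic vesicle markers, against 1299 CPM in optic vesicle-like cells. Their Col9a1 level was 3.54 and 7.41 CPM in libraries 2 and 4, with 1 UMI in library 3. Library 4 had 197 of them beside 270 optic vesicle-like cells. Counting them as optic vesicle-like would lower the 121 CPM of library 4. These values were chosen after they were seen.

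The share of cells with Col9a1 moved with its level. After thinning, 7.95%, 19.9%, 20.6%, 61.1% and 72.2% of optic vesicle-like cells of libraries 1 to 5 had a Col9a1 UMI, against 0.791% of erythroid-like cells. Over all libraries the share was 43.9% (41.7 to 46.1) in optic vesicle-like and 45.6% (43.2 to 48.1) in crest mesenchyme-like cells, or 62.9% and 73.9% without thinning.

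Different sub-clusters held the optic vesicle-like cells of each library, and Col9a1 also varied among sub-clusters of 1 library. In the 6 sub-clusters drawn mainly from library 5 it ranged from 58.0 CPM (50.6 to 66.2) in 143 cells led by Lhx2, Fezf2 and Nr2e1 to 294 CPM (278 to 310.6) in 145 cells led by Trpm1, Mab21l2, Pmel and Dct, genes of which Pmel and Dct serve pigment formation. The sub-clusters led by Pax2 and Fgf15 (173 cells), by Mab21l2 and Trpm1 (117) and by Aldh1a1 and Rax (86) had 224, 227 and 199 CPM, and that led by Lhx2 and Pax2 (136) had 116 CPM. The sub-cluster of library 4 (191 cells) had 154 CPM. In the 5 sub-clusters of library 3 the range was 9.21 to 69.6 CPM, in the 2 of library 2 it was 14.2 and 41.7 CPM, and that of library 1 had 15.2 CPM. The lowest, with 9.21 CPM, was the sub-cluster of 169 cells with Nkx2-1, a gene of the ventral forebrain, among its leading genes, which also passed 4 of the 10 diencephalon and hypothalamus markers, as did 2 other sub-clusters with 4 and 5 of them. In optic vesicle-like cells the summed diencephalon and hypothalamus markers had 38.2, 85.3, 65.0, 32.1 and 8.37 CPM in libraries 1 to 5 and the optic vesicle markers 1110.3, 1041, 1005, 1484 and 1725 CPM, with none at 0 in either list. The telencephalon markers had 166, 296, 244, 269.8 and 423 CPM, lowest in library 1 and highest in library 5, as Col9a1 was. They were lower in library 4 than in library 2, where Col9a1 went the other way. Among the sub-clusters of library 5, those with 58.0 and 116 Col9a1 CPM passed 4 and 3 of the 8 telencephalon markers. The others, with more Col9a1, passed fewer than 3. The part of this makeup in the Col9a1 range was not tested.

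**Figure D4:**
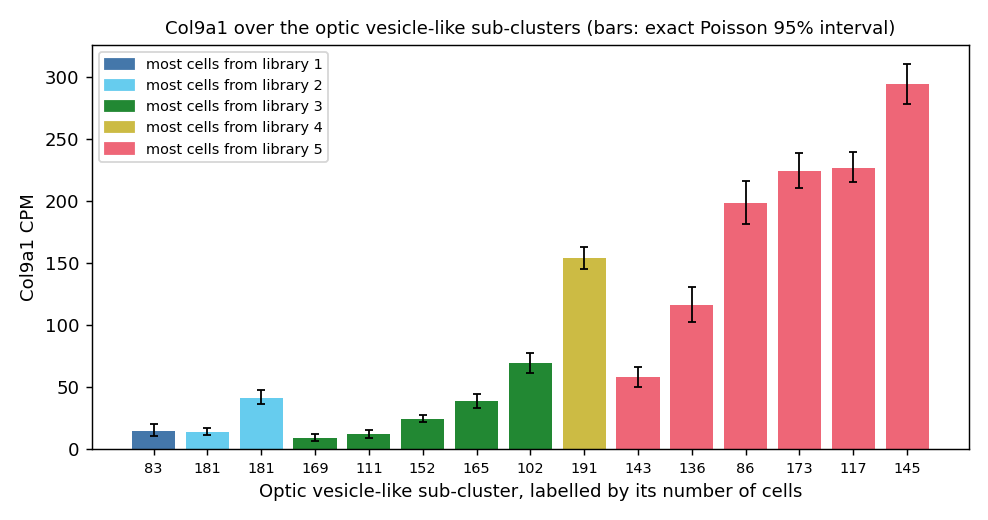
Col9a1 CPM (vertical axis, starting at 0) in the 15 optic vesicle-like sub-clusters (horizontal axis, each labelled by its number of cells), coloured by the library that gave most of its cells, with exact Poisson 95% intervals. The sub-clusters of libraries 4 and 5 reach 154 and 294 CPM, and those of libraries 1 to 3 lie at or below 69.6 CPM.

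The partner genes of Col9a1 had few UMIs. Over the 5 classes there were 10767 Col9a1 UMIs and 242 of Col9a3, and Col9a2 peaked at 2.68 CPM in head mesoderm-like cells. In optic vesicle-like cells Col9a3 had 81 UMIs, so that Col9a1 UMIs per Col9a3 UMI went from 13.3 in library 1 to 246 in library 5. In crest mesenchyme-like cells the same ratio went from 8.62 to 69.9, again lowest in library 1 and highest in library 5.

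The multiplexin collagens, which sit in basement membranes and whose ends can be cut to endostatin-like fragments, differed in their spread over classes. Col15a1 had 83.9 CPM in endothelium-like cells (79.0 to 89.0) and from 0.169 to 0.308 CPM in the other 4 classes, against 0.184 CPM in erythroid-like cells. Its endothelial level was 497 times the optic level (289 to 936), and it had 59.0, 83.7, 61.4, 82.9 and 162 CPM in endothelium-like cells of libraries 1 to 5. Library 5 was highest, and 51.7% of thinned endothelium-like cells had a UMI.

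Among the 5 classes compared, Col18a1, the other multiplexin, was highest in the endothelial and ectodermal classes. It had 213 CPM in endothelium-like, 108 in surface ectoderm-like and 55.4 in optic vesicle-like cells, and 24.0 in head mesoderm-like and 11.4 in crest mesenchyme-like cells. Erythroid-like cells had 5.70 CPM and a UMI in 6.72% of thinned cells. In optic vesicle-like cells Col18a1 had 48.3, 62.6, 48.0, 57.4 and 60.7 CPM in libraries 1 to 5, with library 2 highest only 1.3 times library 3. In crest mesenchyme-like cells it had 5.12, 4.20, 7.55, 14.2 and 26.2 CPM, with the lowest 3 libraries at levels like the 3.18 to 9.65 CPM of erythroid-like cells over libraries. The crest level was 0.205 times the optic level (0.187 to 0.224), or 0.0719 times with the erythroid level subtracted. The subtraction treats the erythroid level as free RNA, which was not shown for Col18a1.

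Within surface ectoderm-like cells Col18a1 and Col4a2 were highest in the same sub-cluster, 34 cells led by Sostdc1 and Wnt6 of which 25 came from library 5. It had 286 Col18a1 CPM (249.7 to 326) and 177 Col4a2 CPM (149 to 209.7), against 44.5 to 140.3 and 19.9 to 84.6 CPM in the other 9 sub-clusters. The highest Col2a1, 285 CPM (234 to 343), was in 11 cells of library 1 that also passed 4 of the 6 notochord markers.

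Of the transmembrane collagens, Col23a1 had 33.6 CPM in crest mesenchyme-like, 28.8 in head mesoderm-like and 23.8 in endothelium-like cells and 1.39 in optic vesicle-like cells. Its crest levels ran from 26.1 CPM in library 3 to 39.4 CPM in library 5, a narrow range. Col13a1, another transmembrane collagen, had 23.5, 19.2, 16.0 and 1.82 CPM in head mesoderm-like cells of libraries 1 to 4, the last from 1 UMI in 23 cells. In surface ectoderm-like cells it had 0, 2.76, 0.894, 1.55 and 35.7 CPM in libraries 1 to 5, high in library 5 alone. In that library 47 of its 50 UMIs came from 35 cells that passed 4 of the 6 lens placode markers, in which Col13a1 had 63.8 CPM (46.9 to 84.9) and Col9a1 39.4 CPM. The lens placode markers summed to 271 CPM in surface ectoderm-like cells of library 5 and to between 59.98 and 114 CPM in those of the other 4 libraries, with 1 of the 6 at 0. In optic vesicle-like cells Col13a1 peaked at 17.8 CPM in the 86 cells led by Aldh1a1 and Rax.

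Col26a1, a secreted collagen with an EMI domain, followed the mesenchyme-like classes, with 79.7 CPM in head mesoderm-like and 58.3 in crest mesenchyme-like cells and 0.987 in optic vesicle-like cells. Its crest levels were 12.5, 40.8, 45.4, 90.8 and 105 CPM in libraries 1 to 5, an 8.41-fold range with library 1 lowest. In head mesoderm-like cells it ranged only from 70.2 to 89.3 CPM. Over the 24 combinations of class and library, the gene whose level was most like that of Col26a1 among the 12 collagens was Col3a1, with a Pearson r of 0.93 and a Spearman rho of 0.88 on log2 levels.

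Pairs of classes were then compared by a rule of size. A gene counted as higher where its CPM ratio was at least 2 with an interval that left out 1, it had at least 20 CPM in the higher class, and every library with at least 20 cells of both classes had the same direction. Genes at or above 20 CPM in either class were the genes tested, and since most collagens are below that level the counts concern 5 to 11 of the 44. A gene that is low in 1 class enters only through the class where it is high, so the counts describe the members and are not support for a difference of the family; the 7 collagens higher in crest than in optic vesicle-like cells, for example, were all under 20 CPM in the latter.

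Crest mesenchyme-like against optic vesicle-like cells gave 7 collagens higher of 10 tested, where 4.42% of 5343 genes were higher: Col3a1, Col26a1, Col23a1, Col1a2, Col5a2, Col4a1 and Col4a2. Col18a1 was lower, where 4.10% of genes were. Head mesoderm-like against optic vesicle-like cells gave the same 7 and Col11a1, so 8 of 11 tested, beside 6.16% of 5438 genes, and again Col18a1 lower beside 3.64%. That Col18a1 call, a ratio of 0.433, was lost with libraries weighted equally, where the ratio was 0.529. These comparisons share the optic vesicle-like cells. The number of collagens higher stayed at 7 in the crest comparison with each library left out in turn. In the head mesoderm comparison it was 7 to 8, and the Col11a1 ratio ran from 1.80, below the rule of 2, to 2.81.

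Surface ectoderm-like against optic vesicle-like cells gave Col4a1 (4.47 times, 3.97 to 5.03) and Col4a2 (4.54 times, 4.10 to 5.02) as higher of 5 tested, beside 5.71% of 5432 genes. Col9a1 was lower, beside 1.60%. Col18a1 missed the ratio of 2 at 1.95 (1.83 to 2.07), higher in 5 of 5 libraries, and Col2a1 had a ratio of 1.62 (1.52 to 1.73).

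Endothelium-like against optic vesicle-like cells gave 5 higher of 7 tested, beside 15.1% of 5762 genes: Col15a1, Col4a1, Col4a2, Col23a1 and Col18a1. Col9a1 and Col2a1 were lower, beside 8.50%. Against crest mesenchyme-like cells the endothelium-like class had Col15a1, Col18a1, Col4a1 and Col4a2 higher of 11 tested, beside 12.6% of 5764 genes, and Col1a2, Col9a1, Col2a1 and Col3a1 lower, beside 6.25%. Col18a1 there was 18.7 times higher (17.1 to 20.6), or 59.2 times with the erythroid level subtracted as if it were free RNA. Without library 1 the Col15a1 ratio went from 272 to 489.5 and the Col2a1 ratio from 0.0361 to 0.0234. With doublets kept the Col2a1 ratio moved the other way, to 0.0569.

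Crest mesenchyme-like and head mesoderm-like cells differed in few collagens. None of 11 tested was higher in crest, beside 0.829% of 5310 genes, though at resolution 2 Col9a1 was, with a ratio of 3.31 in place of 1.52, and 2 were lower beside 2.20%: Col11a1 with a ratio of 0.442 (0.391 to 0.50) and Col18a1 with 0.473 (0.408 to 0.549). Col18a1 had 0.205 with the erythroid level subtracted as if it were free RNA, and 0.715 at resolution 2. Both calls were lost when library 2 was left out, and 1 of them without library 3. Col3a1 missed the rule at 0.569 (0.547 to 0.591), lower in crest in 4 of 4 libraries.

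The genes that make and hold collagen were read from 5 lists. Of all genes tested against optic vesicle-like cells, 4.42% were higher in crest mesenchyme-like, 6.16% in head mesoderm-like, 5.71% in surface ectoderm-like and 15.1% in endothelium-like cells, and few genes of a list reached 20 CPM and were tested. For chain modification and folding (21 genes), 2 of 8 tested were higher in crest mesenchyme-like than in optic vesicle-like cells, 6 of 12 in head mesoderm-like, 6 of 10 in endothelium-like and 0 of 7 in surface ectoderm-like cells. Serpinh1, the collagen chaperone HSP47, had 249 CPM in optic vesicle-like cells and 658, 1098, 384 and 1166 CPM in crest mesenchyme-like, head mesoderm-like, surface ectoderm-like and endothelium-like cells. Fkbp10, a peptidyl-prolyl isomerase of the endoplasmic reticulum, had 6.08 CPM in optic vesicle-like cells and 22.7, 50.4 and 61.2 CPM in crest mesenchyme-like, head mesoderm-like and endothelium-like cells. Plod2, a lysyl hydroxylase, was 6.30 times higher in head mesoderm-like than in optic vesicle-like cells (5.77 to 6.88), and 0.218 times as high in crest as in head mesoderm.

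Sparc, a secreted collagen-binding protein in the same list, went the other way in crest. It had 178 CPM in optic vesicle-like, 149.8 in head mesoderm-like and 869 in endothelium-like cells but 32.8 in crest mesenchyme-like cells, 0.184 times the optic level (0.175 to 0.194). It was the only gene of the list called lower in the comparisons with optic vesicle-like cells.

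In the list of propeptide cleavage and crosslinking (13 genes), Pcolce, which enhances the cutting of fibrillar propeptides, had 130.3 CPM in head mesoderm-like and 56.8 in crest mesenchyme-like cells, against 2.34 in optic vesicle-like and 3.94 in endothelium-like cells. It was the only one of the list called higher in crest than in optic vesicle-like cells, and Pcolce2 joined it in head mesoderm-like cells. Of the receptors (11 genes), Ddr2, a receptor kinase for fibrillar collagen, had 25.9 CPM in crest mesenchyme-like and 45.5 in head mesoderm-like cells and 0.286 CPM in optic vesicle-like cells, a crest ratio of 90.7 (59.7 to 145). Itgb1, the beta chain of the collagen-binding integrins, had 42.4 CPM in optic vesicle-like and 163 in endothelium-like cells.

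Among the genes of breakdown (11 genes), 3 of 4 tested were higher in crest mesenchyme-like than in optic vesicle-like cells, Mmp2, Mmp14 and Ctsb, and 5 of 7 in endothelium-like cells, with Timp2 lower. Timp3, an inhibitor of metalloproteinases that binds the matrix, had 102 CPM in endothelium-like and 8.71 in optic vesicle-like cells, a ratio of 11.7 (10.7 to 12.9). Mmp14, a membrane-bound collagenase, had 8.80 CPM in optic vesicle-like and 30.1, 63.8, 37.7 and 79.2 CPM in crest mesenchyme-like, head mesoderm-like, surface ectoderm-like and endothelium-like cells.

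Of the partners of type IV collagen in the basement membrane (13 genes), 7 of 8 tested were higher in endothelium-like than in optic vesicle-like cells. Over all 13 genes of the list, tested or not, the median log2 ratio with 5 CPM added to both sides was 1.75. It was -0.07 for all genes tested, an unlike set, since genes under 20 CPM in both classes are left out of it. The list median was 0.65 beside 0.02 in surface ectoderm-like, 0.60 beside 0.09 in head mesoderm-like and 0.44 beside 0.07 in crest mesenchyme-like cells. Lama4, a laminin chain of vessels, had 36.9 and 0.169 CPM in endothelium-like and optic vesicle-like cells, Nid1, which links laminin to type IV collagen, 114 and 1.05 CPM, and Hspg2, the proteoglycan perlecan, 202 and 7.67 CPM. Surface ectoderm-like cells had 5 of 7 tested higher than optic vesicle-like cells, with Lama5 at 26.3 and 3.84 CPM and Hspg2 at 46.8 and 7.67 CPM. In crest mesenchyme-like cells Nid1 and Nid2, of 4 tested, were called higher than in optic vesicle-like cells, and in head mesoderm-like cells 0 of 3 tested.

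**Figure D5:**
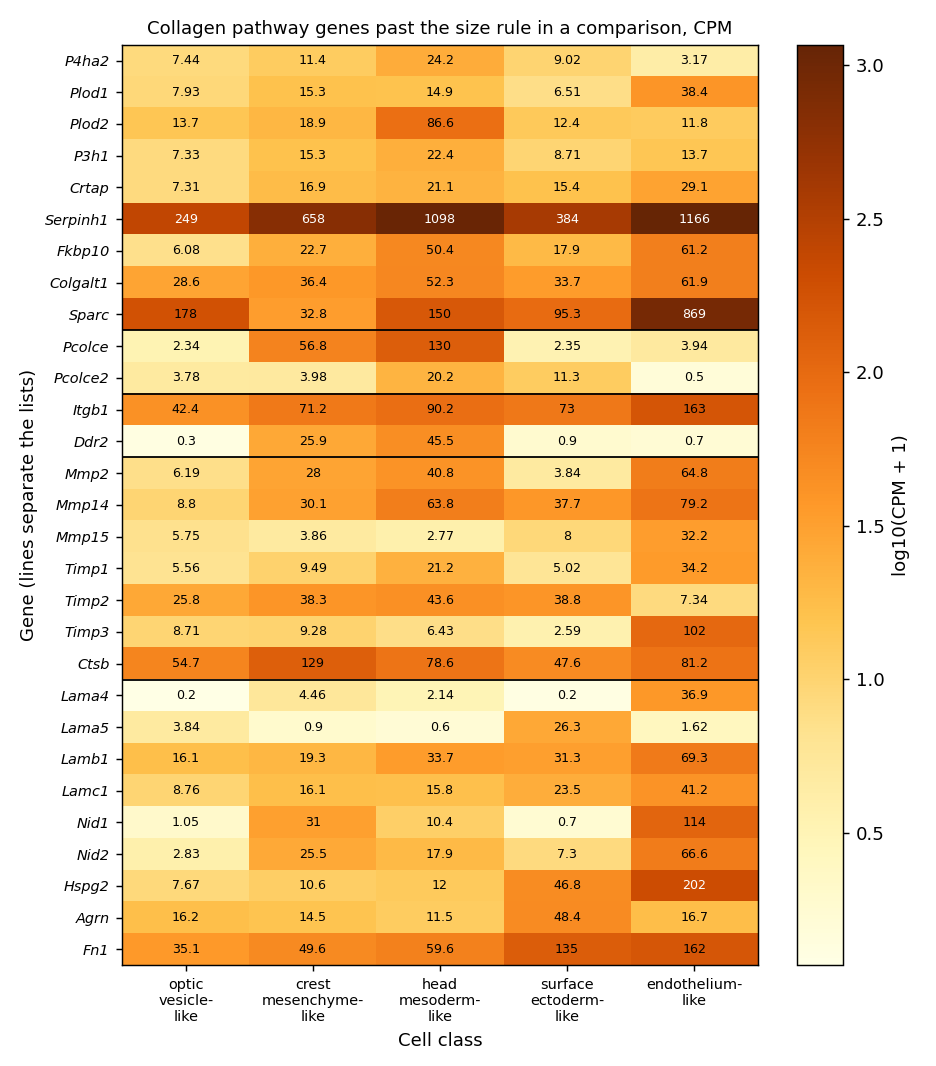
CPM of the genes of the 5 pathway lists that were called in at least 1 comparison (vertical axis, lines between lists) in the 5 classes (horizontal axis); numbers are CPM and colour is log10(CPM + 1). Hspg2, Lama4 and Timp3 stand out in endothelium-like cells at 202, 36.9 and 102 CPM, and Pcolce and Ddr2 in head mesoderm-like cells at 130.3 and 45.5 CPM.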

How the data were processed

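The submitters' processing notes name Cell Ranger, whose version is not given in the sources used here, and the build mm10 (GRCm38). The authors deposited 1 matrix of UMI counts, 27998 genes by 8194 barcodes, with no normalisation visible in the values. The members and lists were chosen with earlier results of these data known. A barcode was kept if it had 1000 genes or more and a mitochondrial share of UMIs not above 10% (8172 barcodes). Scrublet, run per library at an expected rate of 6%, marked 66 barcodes (0.808%), from 0.403% to 1.46% per library, which were removed. Of 8154 distinct barcode sequences, 40 were found in more than 1 library.

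Cells were clustered in scanpy 1.11.5 with 2000 variable genes, 30 components, 15 neighbours and Leiden resolution 1, without collagens and pathway genes; neural, crest and ectoderm clusters were clustered again. Classes needed at least 3 markers of a list (optic vesicle 5) with 10 UMIs and a 2-fold higher CPM; the scoring was chosen with the data in view, and classes may differ from the study's. Clusters with little Malat1 (777 cells), with markers of 2 lineages (388) or unnamed were left out. CPM was computed from the deposited counts, ratios carry exact 95% intervals, and a share of cells a Clopper-Pearson interval after thinning to 10000 UMIs. Collagens at or above 20 CPM in a class were named with values, and those at or above 5 CPM with their highest level; further values of the latter (Col1a1, Col5a1, Col13a1) and other genes named singly (Col12a1, Col9a2, Col9a3, Col4a3 to Col4a6, Col11a2 and Col25a1) were chosen after their values were seen, as were the sub-clusters described. Of each pathway list up to 4 genes with the largest ratio could be named. Counting on simulated counts was tested. A promoter window was found for 35 of the 44 collagens in the RefSeq table. Alternatives were other doublet, clustering, background, threshold and library-weighting choices and each library left out.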

Additional observations from a re-analysis of the deposited data

Results flagged for a closer look

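Migratory crest-like cells, 31 cells that all came from library 5, belonged to none of the 5 classes compared, which are pooled over libraries. In them 4 collagens had at least 20 CPM and an interval whose lower bound lay above the upper bound of each of those classes and of erythroid-like cells. How many of all genes do so was not counted, so the 4 describe these members only. Col5a2 had 60.6 CPM (41.2 to 86.0) against at most 23.7 CPM in the 5 classes, and Col5a1 had 35.2 CPM (20.9 to 55.6) against at most 13.6 CPM. Col25a1, a transmembrane collagen of neurons, had 33.2 CPM (19.4 to 53.2) from 17 UMIs, against at most 2.58 CPM, and Col23a1 had 58.7 CPM (39.6 to 83.7) against at most 33.6 CPM. Among the crest mesenchyme-like sub-clusters the highest levels were 34.4 Col5a2 CPM, 20.4 Col5a1 CPM and 46.8 Col23a1 CPM, the last within the migratory crest-like interval. Col18a1 had 127 CPM (98.1 to 162) in migratory crest-like cells, from 65 UMIs. That was below the 213 CPM of endothelium-like cells and above the 3.17 to 26.8 CPM of the crest mesenchyme-like sub-clusters. The migratory crest-like cells passed 6 of the 6 migratory crest markers, and they stand for 1 embryo.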

How the results depend on the processing

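No value changed direction among called values. Of 260 values of the 20 counts, ranges and ratios under an alternative, 24 moved, and smaller changes of a count are not among these. With single libraries left out, 7 to 8 collagens were higher in head mesoderm-like and 2 to 3 in surface ectoderm-like than in optic vesicle-like cells. In endothelium-like cells 2 to 3 were lower than in optic vesicle-like and 4 to 5 lower than in crest mesenchyme-like cells. Crest mesenchyme-like cells were highest for 3 to 4. The cause was not tested except where fewer libraries or another threshold define the alternative. For head mesoderm-like against optic vesicle-like cells, the 1 collagen lower became 0 with libraries weighted equally or a ratio of 3, and 2 with no direction asked for in single libraries. With a level of 10 CPM, surface ectoderm-like against optic vesicle-like cells gave 2 lower, endothelium-like against crest mesenchyme-like cells 7 lower, and head mesoderm-like cells were highest for 6 collagens. For crest mesenchyme-like against head mesoderm-like cells, resolution 2 gave 1 higher and 1 lower, joined unnamed clusters and subtracted erythroid levels gave 1 lower each, a ratio of 3 gave 0, and leaving out single libraries gave 0 to 3. Leaving out single libraries gave 0 to 1 collagens highest in optic vesicle-like cells (0 without library 5) and 0 to 1 in surface ectoderm-like cells. The Col9a1 range in optic vesicle-like cells was 23.1 with doublets kept and 22.6 with the lists allowed in the clustering, and the Col3a1 range in crest mesenchyme-like cells 4.33 at resolution 2. The Col4a1 to Col4a2 ratio was 0.983 with libraries weighted equally and 0.844 to 1.02 with single libraries left out. Of 921 values for single genes, 208 moved beyond the counting interval, 53 of them by over 1.5 times. Changes within the counting interval were not counted, whatever their size. Leaving out the surface ectoderm-like sub-clusters with lens placode or notochord markers, or the optic sub-cluster with Nkx2-1, was added after seeing the data and moved none of the counts. Classes were compared within libraries only by the direction in each; a fit with the library as a block was not run. Depth limits the 28 collagens under 5 CPM, and 1 embryo per library limits every difference between libraries.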

Other observations

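The other forebrain-like cells, 1216 cells from libraries 1 to 4, were neural cells named from marker lists other than that of the optic vesicle. They were not part of the comparisons, and their place in the tissue was not measured. Their values, chosen here after they were seen, are set against optic vesicle-like cells of the same libraries. All collagens summed to 169, 204, 149 and 139.7 CPM in libraries 1 to 4, against 146, 226, 191 and 301 CPM, so that library 1 went the other way. Col9a1 had 2.33, 2.50, 1.11 and 3.71 CPM, each below the 13.0 to 121 CPM of optic vesicle-like cells. Col18a1 had 53.0, 68.6, 51.0 and 39.5 CPM against 48.3, 62.6, 48.0 and 57.4 CPM, higher in 3 libraries and lower in library 4. Col2a1 had 35.9, 49.1, 40.3 and 34.2 CPM against 25.3, 53.1, 49.8 and 56.1 CPM, higher in library 1 and lower in the other 3.

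Nucleus-depleted barcodes, those with little Malat1 (777), had 9.86, 17.4, 25.4, 74.9 and 229.7 Col9a1 CPM in libraries 1 to 5. Their makeup differed by library. A cluster that passed 5 of the 10 optic vesicle markers held 97 of the 112 in library 5 and 0 of the 199 in library 1. In library 1, 142 were in a cluster that passed no marker list. The part of this makeup in the Col9a1 levels was not tested. Barcodes with markers of 2 lineages (388) had 29.7, 62.6 and 151 Col9a1 CPM in libraries 3 to 5, the libraries with at least 20 such cells.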
